A study of Caenorhabditis elegans with 2 samples.

Results

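The regions described here are candidate binding regions of UNC-98::GFP at the tRNA genes of *Caenorhabditis elegans*. They were taken from the deposited list that ranks regions by their agreement between the replicates, and a region was kept when its summit, the position the files give as its highest point, lay within 200 bp of a nuclear gene annotated as tRNA. Of 131481 regions in that list, 484 met the rule (0.368%). The stretches within 200 bp of a tRNA gene make up 273122 of 100272607 bp of the nuclear chromosomes (0.272%). No signal value entered the choice.

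Chromatin came from whole larvae of strain OP85, which carries the transgene wgIs85 (*unc-98* joined to TY1, EGFP and 3xFLAG tags, with *unc-119*(+)) in an *unc-119*(ed3) background. The larvae were L1 animals of 6 hours, starved after bleaching. Chromatin was sonicated to 200 to 800 bp and precipitated with an antibody to GFP in 2 biological replicates, which form the only group. All the larvae come from 1 transgenic strain, the labels do not name the promoter of the transgene, and no library from untagged worms was analysed, so signal that depends on the tag cannot be told apart from signal that does not. In whole larvae the cells that give a signal cannot be told apart either. With 1 group there was no comparison between groups of samples, and no test was made. Library depth is unknown, since the files hold no counts of reads.

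tRNA genes are transcribed by RNA polymerase III. In most of them the promoter lies inside the gene, in an A box near the 5′ end and a B box further downstream, which the factor TFIIIC recognises. The factor TFIIIB then binds just upstream of the start and recruits the polymerase. Many tRNA genes of the worm are present as identical copies at separate places, and a large part of them lie on the X chromosome, often within introns of protein-coding genes. UNC-98 has C2H2 zinc fingers, is known from the attachment sites of body wall muscle and is also found in nuclei.

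The following genes, read 5′ to 3′ on their own strand from the RefSeq copy of WBcel235 (the build also named ce11), are shown because each lies at a region of the stricter list described below and they span the forms found there. Capitals mark the core of the B box, searched as GTTCNANNC, and in 1 gene that of the A box, searched as TGGCNNAGT. K11H12.t1 on chromosome IV is the only tRNA gene for selenocysteine, C24H11.t1 on chromosome III decodes threonine and is 1 of 3 identical genes, F10C1.t1 on chromosome II decodes glycine and has no identical copy, C33G3.t2 on chromosome X decodes lysine and is 1 of 14 identical genes, ZK563.t1 on chromosome X decodes threonine and holds both cores, and C16B8.t2 on chromosome X decodes proline and holds neither.
K11H12.t1: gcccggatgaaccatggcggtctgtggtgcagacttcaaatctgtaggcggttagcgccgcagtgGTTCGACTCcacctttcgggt
C24H11.t1: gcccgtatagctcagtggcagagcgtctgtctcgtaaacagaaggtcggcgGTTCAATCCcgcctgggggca
F10C1.t1: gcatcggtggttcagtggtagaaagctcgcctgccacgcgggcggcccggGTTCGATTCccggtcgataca
C33G3.t2: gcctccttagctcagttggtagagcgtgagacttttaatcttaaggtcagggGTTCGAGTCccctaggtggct
ZK563.t1: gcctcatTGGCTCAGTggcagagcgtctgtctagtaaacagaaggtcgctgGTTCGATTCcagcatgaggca
C16B8.t2: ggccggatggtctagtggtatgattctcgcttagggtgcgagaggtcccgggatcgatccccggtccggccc

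W09D6.t2 on chromosome III and F46G11.t2 on chromosome X are both tRNA-Pro genes with the anticodon TGG, and they belong to a set of 24 identical copies. They are shown with the 60 bases before the gene, because the summit of each lay in that stretch. It was 35 bp upstream of W09D6.t2 and 40 bp upstream of F46G11.t2, outside the part that is identical. Another copy of the same set lies on the other side of each summit. These are W09D6.t1, with a gap of 108 bp to W09D6.t2, and F46G11.t1, with a gap of 190 bp to F46G11.t2. Capitals again mark the B box core.
W09D6.t2: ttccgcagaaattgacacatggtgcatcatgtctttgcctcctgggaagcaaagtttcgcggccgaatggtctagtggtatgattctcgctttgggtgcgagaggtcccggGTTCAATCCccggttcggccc
F46G11.t2: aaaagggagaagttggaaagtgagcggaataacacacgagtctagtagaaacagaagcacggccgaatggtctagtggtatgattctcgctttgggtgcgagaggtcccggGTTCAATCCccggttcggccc

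Over all 612 nuclear tRNA genes, the B box core was found in 587 (95.9%), at a median position of 52 bases from the 5′ end, and the A box core in 61 (9.97%), at position 8. The spelled A box core therefore marks only a small share of the tRNA genes. A candidate region lay within 200 bp of 464 of the 612 genes (75.8%), and 148 genes had none. RefSeq names an amino acid for 607 of the genes. An anticodon could be read from the sequence of 598 of them, giving 47 kinds. Every one of the 21 amino acids, selenocysteine included, and every one of the 47 anticodons had at least 1 gene with a candidate region.

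The authors' signal value, a score whose scale is not stated, had a median of 28.0 at the 484 tRNA regions (quartiles 16.2 and 42.2, range 2.62 to 153.8) and of 19.6 over all regions of the list (quartiles 11.8 and 28.5). The value exceeded the median of the whole list at 329 of the 484 regions (68.0%). Of the tRNA regions, 156 (32.2%) were among the top 10% of the list by signal. The signal was lower a short way from the genes. Summits over 200 and up to 400 bp from a tRNA gene had a median of 17.9 (190 regions), and those over 400 and up to 600 bp away had a median of 20.7 (249 regions).

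The deposited conservative list holds regions that passed a threshold on the irreproducible discovery rate (IDR), a measure of how poorly the replicates agree in their ranking. It starts at an IDR of 0.01, but 66 of the 794 ranked regions past that value are not in it. Of these 66, 0 are at tRNA genes, and why they were left out is not given in the sources used here. A region of the conservative list is termed called here. Of the 484 tRNA regions 36 were called, which is 7.44% (95% Wilson interval 5.42% to 10.1%, covering the number of regions only), against 0.554% of all regions and 0.528% of the 130997 regions away from tRNA genes. Each is named here for its nearest gene, and 7 of the 36 lie within 200 bp of several tRNA genes. Together they lay within 200 bp of 41 tRNA genes (6.70% of 612), which decode 14 of the 21 amino acids with 22 of the 47 anticodons. Further from the genes the share was lower. It was 1.58% over 200 and up to 400 bp from a tRNA gene (3 of 190, interval 0.538% to 4.54%), and none of the 500 regions over 400 and up to 800 bp away were called, which allows a share of up to 0.600% when the limit is set at 3 regions of the total (the upper Wilson limit is 0.762%). Over 800 and up to 1000 bp away 2 of 259 were called (0.772%). Counted by the IDR alone, 36 tRNA regions passed 0.01 (7.44%), against 0.604% of all regions. At an IDR of 0.05 they numbered 57 (11.8%), against 1.02%, and at an IDR of 0.001 they numbered 6 (1.24%), against 0.232%.

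**Figure D1:**
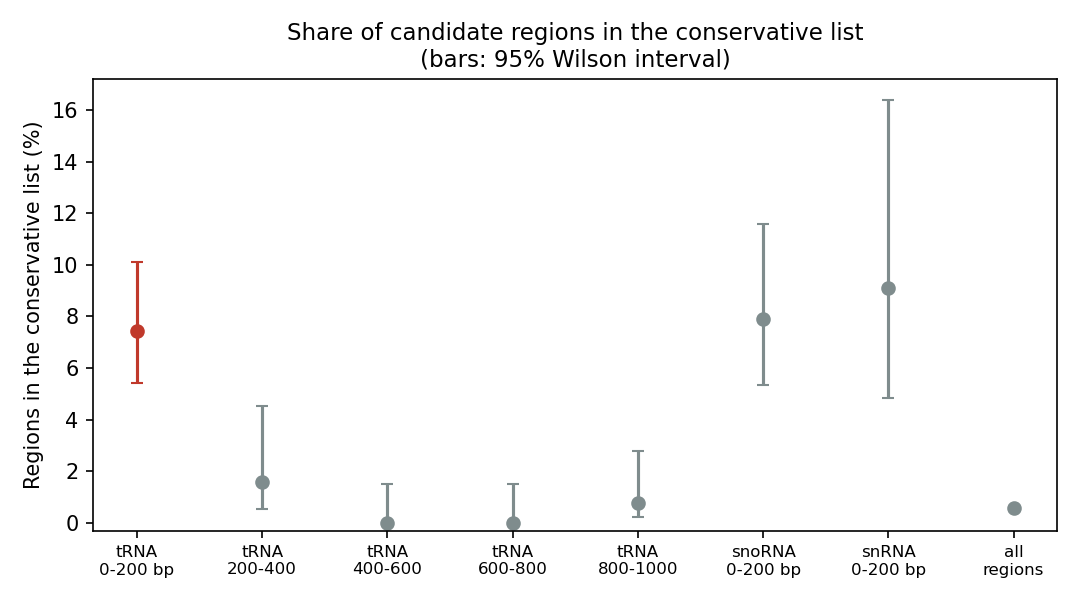
The plot gives, for each class of candidate region, the share in the conservative list in percent, with 95% Wilson intervals as bars. Regions at tRNA genes stood at 7.44%, close to regions at snoRNA and snRNA genes, and all regions of the list at 0.554%.

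Genes for other small RNAs gave similar shares. Of 291 regions within 200 bp of a snoRNA gene, whose RNAs guide the modification of other RNAs, 23 were called (7.90%, interval 5.32% to 11.6%). Of 99 regions at snRNA genes, which encode the RNAs of the spliceosome, 9 were called (9.09%, interval 4.86% to 16.4%). The intervals of the 3 classes overlap, and no difference between the classes was tested. The highest signal was 153.8 at tRNA genes, 340.3 at snoRNA genes and 267.5 at snRNA genes. The called tRNA regions had a median of 83.4 and all called regions one of 105.2, and the strongest tRNA region ranked 208 among the 728 regions of the conservative list. Only 10 of the 36 lay above the median of that list.

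The strongest tRNA region, X 8404348 to 8404663, lay on F41D9.t3, a tRNA-Asn gene with the anticodon GTT on the opposite strand of an intron of *sulp-3*, a gene of the sulfate permease family. Its signal was 153.8 in the list of both replicates together, 86.0 in replicate 1 and 57.3 in replicate 2. K08E7.t1 (IV 12594570 to 12594885), a tRNA-Lys gene with the anticodon CTT in an intron of the transporter gene *pgp-1*, had 142.9 together, 74.85 in replicate 1 and 74.2 in replicate 2. The replicates were nearly level at K08E7.t1, whereas at F41D9.t3 replicate 1 was the higher. Here and below, replicate values come from each replicate's own list, and whether the lists share a scale is not stated.

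W09D6.t2 (III 11066796 to 11067111), the tRNA-Pro gene shown above, lies in an intron of *rsa-2*, whose product acts in spindle assembly. It had 140.3 together, 57.1 in replicate 1 and 72.7 in replicate 2. The other tRNA-Pro gene shown, F46G11.t2 (X 5801164 to 5801479), had 107 together, 47.0 in replicate 1 and 54.5 in replicate 2. At both of these identical genes replicate 2 was the higher.

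M02F4.t1 (X 3035986 to 3036301), a tRNA-Gly gene with the anticodon TCC, had 137 together, 88.4 in replicate 1 and 51.3 in replicate 2. The value in replicate 1 was the highest of any called tRNA region there. This region also lies within 200 bp of M02F4.t2, a tRNA-Glu gene with the anticodon CTC, and is counted under glycine as its nearest gene. C28G1.t1 (X 8835938 to 8836253), a tRNA-Glu gene in the promoter window of *sec-15*, which encodes a subunit of the exocyst, had 129 together, 75.02 in replicate 1 and 53.1 in replicate 2. C33G3.t2 (X 14063872 to 14064187), the tRNA-Lys gene shown above, had 126 together, 75.2 in replicate 1 and 53.0 in replicate 2. These 3 regions on chromosome X all had their higher value in replicate 1.

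K11H12.t1 (IV 657972 to 658287), the selenocysteine gene, carries the amino acid that is inserted at certain UGA codons. Its region had 106 together, 42.8 in replicate 1 and 66.2 in replicate 2, and its summit lay 51 bp upstream of the gene. C24H11.t1 (III 11792620 to 11792935), the tRNA-Thr gene with the anticodon CGT, had 111 together, 45.9 in replicate 1 and 51.7 in replicate 2. F10C1.t1 (II 5782046 to 5782361), the tRNA-Gly gene with the anticodon GCC and 1 copy, had 104.8 together, 57.3 in replicate 1 and 45.3 in replicate 2. Its summit was 78 bp from the 5′ end and thus past the end of the gene, which was so at 4 of the 36 called regions.

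Other called regions were those of T21B4.t1 (tRNA-Ile, in an intron of the collagen gene *col-85*), with 116, Y82E9BR.t1 (tRNA-Gly), with 98.2, C53C7.t1 (tRNA-Ser), with 97.0, K03B8.t1 (tRNA-Val, in an intron of *grl-3*), with 93.8, K06A4.t1 (tRNA-Ala, in an intron of the sugar transporter gene *swt-5*), with 93.5, and C04C11.t1 (tRNA-Glu), with 90.4. All other called tRNA regions but 2 lay between 61.6 and 86.3, the value of K04C2.t3, a tRNA-Lys gene in an intron of *brd-1*.

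The exceptions were F42A10.t2 (tRNA-Ser), with 27.5, and T06H11.t3 (tRNA-Arg), with 4.001, which are named because of these values. Each overlaps the same region of the replicates' own lists as a stronger called neighbour, F42A10.t1 with 80.7 and T06H11.t2 with 83.2, so each pair shares its replicate signals and is not an independent call. When overlapping regions are merged the called regions make up 34 places, out of 429 for all tRNA regions (7.93%). Low signals of this kind also occur elsewhere, since 21 of the 728 called regions had a signal under 30.

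A second thresholded list was deposited for the series, drawn from its own ranking, of which 0.599% is in the list. It also held 36 of the 484 tRNA regions, but only 28 of them were the same regions, which is 77.8% of either set. Over all regions of the ranked list, 631 were in both, which is 86.7% of the conservative list and 80.2% of the matched regions of the second. The 8 tRNA regions in the conservative list alone were F15B9.t1 (83.5), T06H11.t2 (83.2), C16B8.t2 (79.0), Y54G2A.t3 (68.8), ZK678.t1 (66.5), ZK507.t1 (65.3), F42A10.t2 (27.5) and T06H11.t3 (4.001). In the second list alone were R04A9.t1 (90.4), T15B12.t1 (77.8), T23F1.t1 (76.5), Y57G11C.t1 (61.8), C42D8.t1 (60.1), K07A1.t1 (57.7), C14F11.t1 (56.2) and F47G6.t1 (56.0). The values in parentheses are signals in the list of both replicates together, and apart from the overlapping pairs the ranges of the 2 sets overlap. R04A9.t1, a tRNA-Gln gene, had 51.8 in replicate 1 and 29.0 in replicate 2 and missed the conservative list with a −log10 IDR of 1.97, where 2 is needed.

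The replicates gave different numbers of tRNA regions when each was taken by itself. In the list of replicate 1, 20 of 402 tRNA regions passed (4.98%), against 0.558% of all its regions. In the list of replicate 2, 11 of 375 passed (2.93%), against 0.369%. The median signal of the tRNA regions was 18.3 in replicate 1 and 18.0 in replicate 2. Of the 36 called regions, 7 overlapped a thresholded region of both replicates, 11 of replicate 1 alone, 4 of replicate 2 alone and 14 of neither. The thresholded lists hold 577 regions in replicate 1 and 394 in replicate 2, fewer than the conservative list. The same split was not made for called regions away from tRNA genes, so it is not known to be particular to tRNA genes.

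At the 324 tRNA regions with a match in both replicates' rankings, Spearman's rho between the replicate signals was 0.455, against 0.162 at the 74083 such regions of the whole list. Within the 36 called tRNA regions rho was 0.225 and within the 288 others 0.259, while within the 686 called regions away from tRNA genes it was 0.653. The rho values describe the order of regions in the same 2 libraries, regions share their library and depth, and the call itself narrows the range of signals. At the 36 called regions the signal ran between 30.6 and 88.4 in replicate 1 (median 45.8), and replicate 1 was the higher at 21. In replicate 2 it ran between 29.98 and 74.2 (median 45.4). At called regions away from tRNA genes it ran wider, from 28.5 to 391.8 in replicate 1 and from 28.6 to 263.1 in replicate 2. Whether the lower rho at the called tRNA regions follows from their narrower range was not tested.

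**Figure D2:**
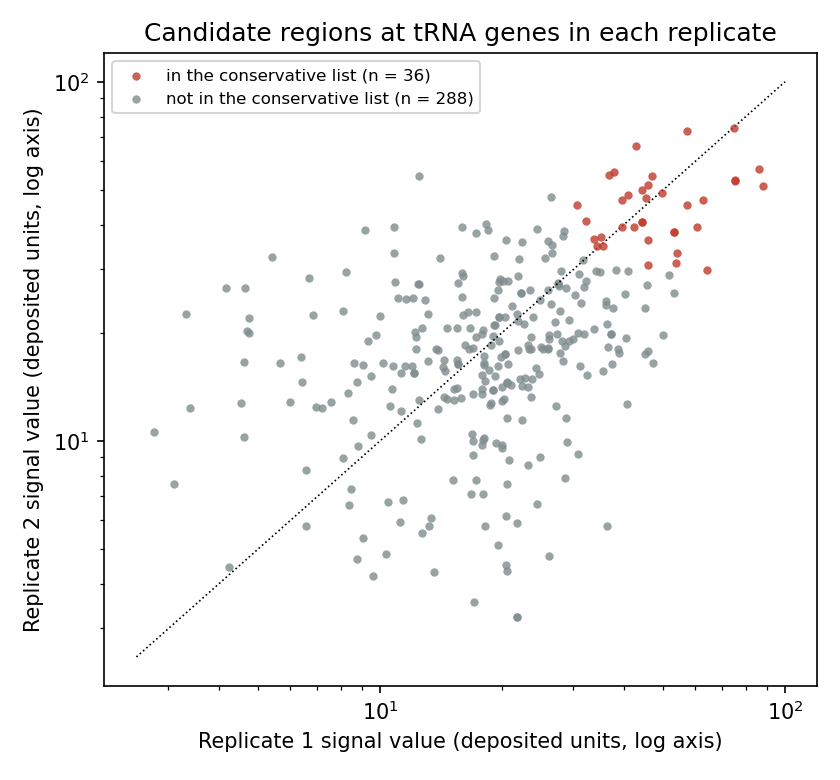
Each point is a candidate region at a tRNA gene with a match in both replicates, at its signal in replicate 1 (x) and in replicate 2 (y) on log axes, with a dotted line where they are equal and with called and other regions in separate colours. The called regions occupy the upper right, from 30.6 to 88.4 in replicate 1 and from 29.98 to 74.2 in replicate 2, with no close relation between the replicates among them.

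The summits gathered at the tRNA genes themselves. Of the 484, 184 lay upstream, 122 inside and 178 downstream of the nearest gene. The genes are short, with a median length of 72 bp. Added over all genes and taken over a span of 74.9 bp, this came to 16.3 summits per 10 bp inside the genes. It came to 9.20 per 10 bp in the 200 bp upstream and 8.90 per 10 bp in the 200 bp downstream. The full 200 bp was used on each side, also where another tRNA gene lies nearer. The median summit lay 34.5 bp from the 5′ end in the direction of transcription.

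Called summits were nearer to the 5′ end. Their median position was −0.5 bp (quartiles −20.25 and 31.75), against 44 bp for the 448 regions that were not called. Within 60 bp of the 5′ end on either side lay 31 of the 36 called summits (86.1%) and 156 of the 448 others (34.8%). Of the called summits 18 were upstream, 14 inside and 4 downstream. The share called was thus 9.78% upstream (interval 6.28% to 14.9%), 11.5% inside (interval 6.96% to 18.3%) and 2.25% downstream (interval 0.877% to 5.63%). In bins of 25 bp the share was highest from 25 bp to 1 bp upstream of the 5′ end, where 10 of 46 regions were called (21.7%) and the median signal was 41.4. In the bin of the first 25 bases of the gene 7 of 37 were called (18.9%). All 484 regions have the same width, 316 bp, with the summit given at the centre. Nearly the whole list has that width (99.9%). Among called regions 637 of 728 have it, and so do all 36 at tRNA genes. The width of the tRNA regions therefore carries no information on the extent of binding.

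**Figure D3:**
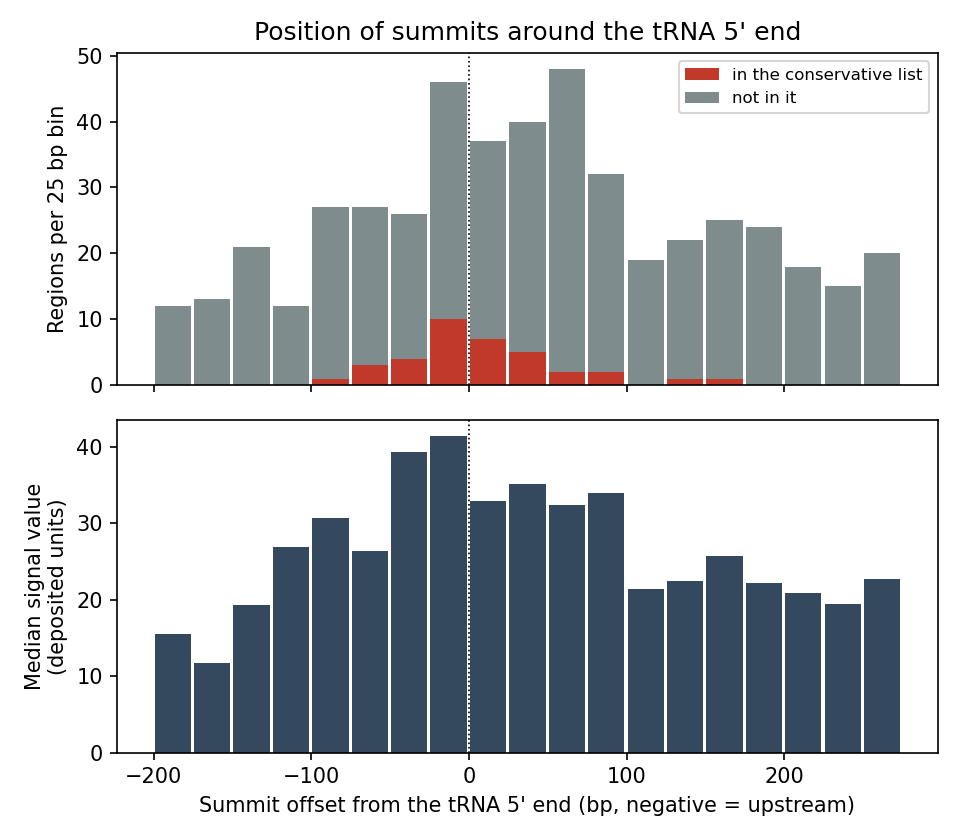
Summits around the 5′ end of the nearest tRNA gene in bins of 25 bp, with negative distances upstream: the upper panel counts called and other regions and the lower panel gives the median signal of each bin. Called regions are concentrated within 60 bp of the 5′ end, and the highest median, 41.4, is in the bin just upstream of it.

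The 200 bp around the summit held the B box core, on either strand, at 30 of the 36 called tRNA regions (83.3%) and at 248 of the 448 others (55.4%). Over all regions of the list the share was 7.65%. The A box core was there at 28 of the 484 tRNA regions (5.79%), against 2.22% of all regions. It was there at 1 of the 36 called tRNA regions (2.78%) and at 27 of the 448 others (6.03%). The tRNA regions were chosen by their nearness to tRNA genes, and 95.9% of all tRNA genes hold the B box core. Its higher share than in the whole list therefore follows from that choice. The B box core was found at 119 of 122 tRNA regions with the summit inside the gene, 70 of 184 upstream and 89 of 178 downstream. Called summits lay nearer to the 5′ end, and called and other regions were not compared at equal summit positions. Whether their B box shares differ beyond position was not tested. A match is a description of the sequence and does not show a site.

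Identical genes did not give identical signals. The 41 genes at called regions include 33 that belong to 19 sets of 2 to 29 identical copies, 266 genes in all. In none of the 19 sets were all copies at a called region. The sets were taken because at least 1 copy was called, and only 6.70% of all tRNA genes were at a called region. That no set was called in full is therefore a description only. Of the 18 identical tRNA-Asn genes with the anticodon GTT, 2 were at a called region, 12 at a candidate that was not called and 4 at none, and the highest signal at each gene ran from 11.7 at T04F8.t1 to 153.8 at F41D9.t3. Of the 24 tRNA-Pro genes with the anticodon TGG, 4 were within 200 bp of a called region and 16 of another candidate, with signals from 10.6 to 140.3. Those 4 genes share 2 called regions, those named above for W09D6.t2 and F46G11.t2. Of the 25 tRNA-Lys genes with the anticodon CTT, 2 were at a called region and 18 at another candidate, with signals from 11.2 to 142.9. A set of 2 tRNA-Leu genes with the anticodon CAG lay closer, with 66.5 at the called ZK678.t1 and 63.4 at C43G2.t1, which was not called. The value of a gene is that of its strongest summit within 200 bp, so copies were not compared at equal summit positions. How reads that match several copies were placed is not given in the sources used here, and its part in these differences was not tested.

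By the number of identical copies, the share called was 6.54% at genes with 1 copy (7 of 107), 4.05% at genes with 2 to 5 copies (3 of 74) and 8.58% at genes with over 5 copies (26 of 303). The median signal was 25.4 at 1 copy, 26.1 at 2 to 5 copies and 30.0005 at over 5 copies. With another tRNA gene within 1000 bp of the gene, 11 of 160 regions were called (6.88%, median signal 27.7), and without one 25 of 324 (7.72%, median signal 28.1).

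By amino acid, the median signal ran from 16.4 at tRNA-Phe genes (11 regions) to 35.7 at tRNA-Trp genes (6 regions), leaving out selenocysteine, which has 1 gene. In 19 of these 20 kinds it was above the median of the whole list. tRNA-Phe was the exception, and with tRNA-Trp also had the fewest genes with a candidate, 7 of 14 and 6 of 12 genes (50% in both). The largest share was 87.3%, at tRNA-Gly (48 of 55 genes).

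The most called regions were at tRNA-Arg genes, with 5 of 31 (16.1%), followed by tRNA-Asp with 4 of 20 (20%), tRNA-Lys with 4 of 38 (10.5%) and tRNA-Gly with 4 of 46 (8.70%). Of the tRNA-Arg calls, 4 were at genes with the anticodon ACG, and 1 of those is the overlapping region T06H11.t3. Aspartate has a single anticodon, GTC, and its called genes were F28F8.t3 (82.5, in an intron of the acetylcholine receptor gene *acr-18*), T14F9.t1 (79.0), F38G1.t2 (75.4, in an intron of *egl-17*, which encodes a fibroblast growth factor) and Y54G2A.t3 (68.8). With so few regions of each kind, neighbouring amino acids in this order cannot be separated.

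No region of the conservative list lay at the genes for 7 amino acids, Cys, Gln, His, Met, Phe, Trp and Tyr. They have 6 to 23 candidate regions each, which allows shares of up to 13.0% to 50% when the limit is set at 3 regions of the total. They were grouped because none was called. Their strongest regions were at R04A9.t1 (Gln, 90.4), T15B12.t1 (Met, 77.8), W09G10.t1 (His, 68.1), B0523.t1 (Trp, 62.5), Y43F4A.t1 (Tyr, 59.2), F53F8.t1 (Cys, 38.5) and F22B7.t3 (Phe, 37.99). Of these genes, R04A9.t1 and T15B12.t1 are at a region of the second list, which also holds Y57G11C.t1, a tRNA-His gene, so 3 of the 7 amino acids have a region there.

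**Figure D4:**
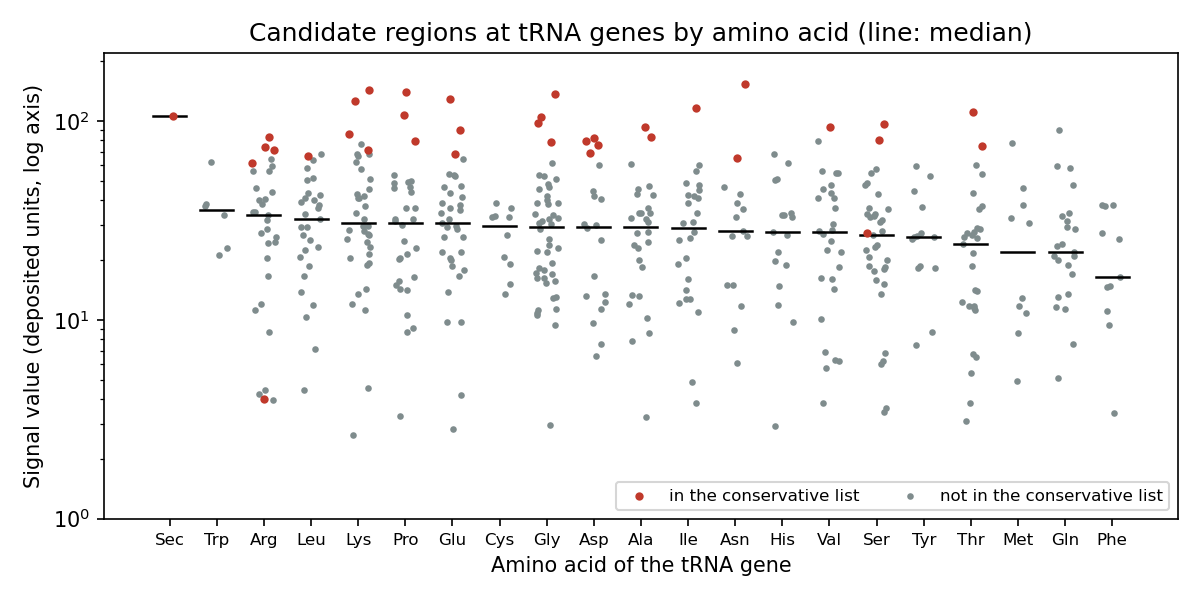
Signal of each candidate region on a log axis by the amino acid of the nearest tRNA gene, with called and other regions in separate colours and a line at each median. Medians lie between 16.4 and 35.7 apart from the selenocysteine gene, whose only region is at 106.

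The X chromosome holds 276 of the 612 tRNA genes and 208 of the 484 regions. The share of tRNA genes with a candidate was similar on all chromosomes, from 73.9% on X to 80.3% on IV. On X, 16 of 208 tRNA regions were called (7.69%), against 0.416% of all regions of X. On chromosome III it was 8 of 52 (15.4%), against 0.826%, and there the tRNA regions also had their highest median signal, 34.6. The pair F42A10.t1 and F42A10.t2 accounts for 2 of these 8. The smallest share was on chromosome I, with 2 of 57 (3.51%), against 0.665%. The shares on the others were 4.88% on II (2 of 41), 6.06% on IV (4 of 66) and 6.67% on V (4 of 60), so on every chromosome the share of tRNA regions called was above that of all its regions.

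**Figure D5:**
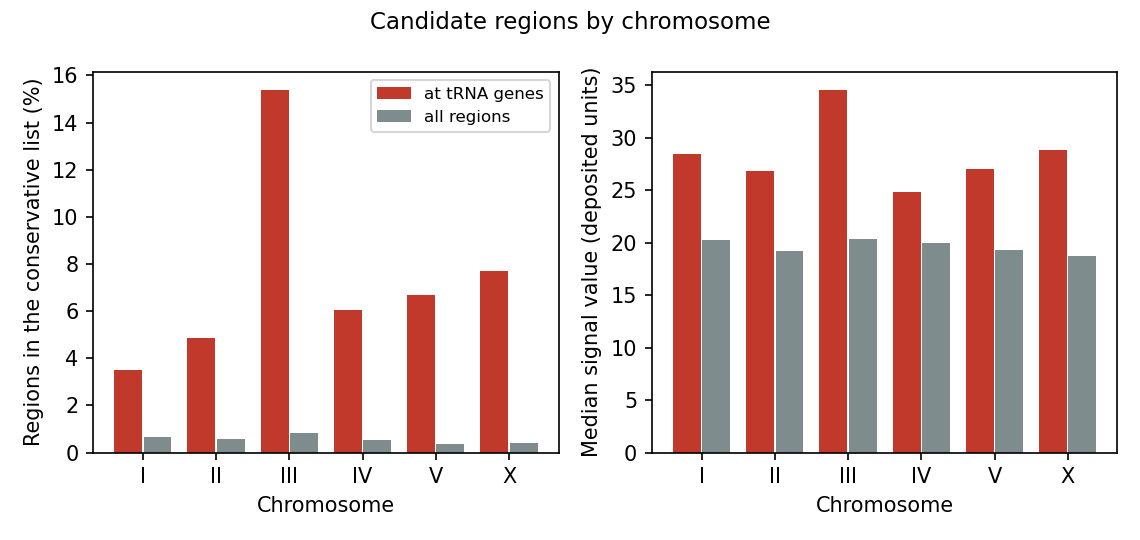
For each chromosome, bars for candidate regions at tRNA genes stand beside bars for all candidate regions, with the share called in percent at left and the median signal at right. The share called at tRNA genes runs from 3.51% on I to 15.4% on III and is above that of all regions on each chromosome.

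Most tRNA genes lie apart from protein-coding genes or in their introns. Of the 36 called regions, 17 were nearest to a gene between protein-coding genes (17 of 240, 7.08%), 12 to a gene in an intron on the opposite strand of the host (12 of 103, 11.7%), 6 to a gene in an intron on the same strand (6 of 133, 4.51%) and 1 to a gene overlapping an exon (1 of 8). The overlapping pair T06H11.t2 and T06H11.t3 counts once in each of the intron classes. No difference between these classes was tested. The medians of the signal were 27.1 between genes, 29.6 in introns on the opposite strand and 28.4 in introns on the same strand, and 32.5 at the 8 regions of genes overlapping an exon. The hosts of called opposite-strand genes include *sulp-3*, *pgp-1*, *rsa-2*, *col-85*, *grl-3*, *egl-17* and the potassium channel gene *unc-58*.

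A promoter window, which reached 1000 bp before and 500 bp past the start of a protein-coding transcript, held the summit of 144 of the 484 tRNA regions (29.8%) and of 31.9% of all regions. Among called regions it held 16 of the 36 at tRNA genes (44.4%), against 65.7% of all called regions. Within such windows 16 of 144 tRNA regions were called (11.1%, interval 6.96% to 17.3%), against 1.14% of all regions there. Outside them 20 of 340 were called (5.88%, interval 3.84% to 8.91%), against 0.279%. Such a window held 69 of the 240 tRNA regions nearest to a gene between protein-coding genes, and 8 of the 17 called ones among them. The other 9 of those 17 were neither in such a window nor in an intron or exon.

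The genes of the RNA polymerase III machinery showed no called region in their own promoter windows. Of 13 symbols listed for the polymerase and its factors 12 were matched, 10 of them had a candidate and 0 were called, against 3.18% of all 19973 protein-coding genes. Of 11 genes for tRNA maturation, modification and export 1 was called, *elpc-2*, a subunit of the Elongator complex that modifies wobble uridines (110.4 together, 61.6 in replicate 1 and 49.8 in replicate 2). *hoe-1*, which encodes the RNase Z that trims tRNA 3′ ends, had 75.9 and fell just short with a −log10 IDR of 1.998; it is named because of that value. Of 31 aminoacyl-tRNA synthetase genes 2 were called. They were *kars-1*, which charges tRNA-Lys (229.6 together, 125 in replicate 1 and 106 in replicate 2), and *ears-2* (77.0 together, 47.3 in replicate 1 and 42.3 in replicate 2), and none of these regions lay at a tRNA gene. With lists this short, these counts are a description only.

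At the edge of the rule, the regions just inside 200 bp were at Y92C3A.t2 (200 bp, signal 12.2), Y97E10C.t1 (200 bp, 5.40) and K02E2.t1 (198 bp, 15.05), and those just outside were at T28F2.t1 (201 bp, 7.76), C18A11.t1 (203 bp, 20.9) and F08F1.t1 (204 bp, 19.998). None of these 6 regions was called.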

How the data were processed

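The authors deposited ranked and thresholded region lists for each replicate and for both replicates together. Per the file headers (text files that accompany the lists), they come from alignments to ce11 and a control file; neither aligner nor caller is given in the sources used here. The signal the authors deposited is a score with no stated scale. It was summarised within a list, and the replicates' signals were also set side by side from their own lists. The median over all ranked regions was 12.73 in both of those lists, but whether they share a scale is not stated. The ranked lists also give −log10 of the IDR, and the conservative list starts at 2. The 16 columns of the series lists with values that name no sample were not used. Depth is unknown, and Wilson 95% intervals cover the number of regions only.

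tRNA, snoRNA, snRNA and protein-coding genes came from Ensembl release 115, and sequences and amino acids from RefSeq, both of WBcel235, on the 6 nuclear chromosomes. A replicate's signal was that of its ranked region sharing most bases with the tRNA region (at least 1 bp). A region is in a thresholded list of the series when its coordinates and summit match exactly. Gene position, promoter windows and overlap were tested on simulated data. Python 3.11.15, pandas 2.3.3, numpy 2.4.6 and scipy 1.17.1 were used. There were no p-values.

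The regions, gene lists and naming rule were chosen with earlier results of these data known. The rule names up to 30 tRNA regions in any thresholded list by signal, the 20 strongest, the strongest of each amino acid, the 3 strongest of each replicate, the 3 nearest each side of the border, and their protein-coding neighbours. Regions of the 2 series lists outside it were named after their values were seen.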

Additional observations from a re-analysis of the deposited data

How the results depend on the processing

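No paired analysis was possible because the 2 replicates form 1 group. Counts were compared within 1.5 times, and other values against the SD of the 2 replicates' own lists. By these limits 39 values stayed and 27 moved. For the median signal that SD was 0.245, from lists with a scale of their own. It does not measure the spread of the median in the list of both replicates together, so these labels are a description only. The number of tRNA regions was 793 at 500 bp and 107 without genes that have identical copies. The nearest genes of those 107 regions numbered 95, and 102 of the 143 genes with 1 copy had a candidate within 200 bp. The median signal was 32.2 at 100 bp, 23.4 at 500 bp, 29.3 for regions overlapping the gene, 36.4 for signals at or above the list median, 26.8 outside promoter windows and 25.4 without copied genes; in single replicates it was 17.97 to 18.3, on the scale of those lists. The called regions numbered 11 to 20 in single replicates, 20 outside promoter windows, 7 without copied genes, 6 at an IDR of 0.001 and 57 at 0.05, and of the 36 called regions 11 to 18 passed in a single replicate. The share in promoter windows was 26.2% without copied genes and 10.95% for windows from 500 bp upstream to the 5′ end. The median summit position was 28 bp at 100 bp, 30.5 bp for overlapping regions, 28 bp at or above the list median, 43.5 bp outside promoter windows and 27 to 32.5 bp in single replicates. Chosen after seeing the data, an overlap of 50% gave a rho of 0.504, with no spread to set it against. The cause of these shifts was not tested, beyond fewer or more regions entering by construction. The second list gave the same count with 28 shared regions.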
